A study of Mus musculus with 12 samples.

Results

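The S100, annexin, galectin and cytoskeletal genes described here were 10 genes chosen by name, and all 10 were found among the 27179 genes of the count table: Lgals1, S100a4, S100a6, S100a10, S100a11, Anxa1, Anxa2, Ahnak, Vim and Crip1. The list takes them as calcium-binding and cytoskeletal genes of lymphocytes that have met antigen. It was chosen with earlier results of these data known, so its contrasts with all genes are descriptive. RNA was measured in mature B cells of the bone marrow, sorted by flow cytometry for high B220, surface IgM and no CD93. All mice had a C57BL/6 background, and each of the 4 groups had 3 libraries. Young wild-type mice were 9, 10 and 11 weeks old, and old wild-type mice were 98, 99 and 100 weeks old. The apoptosis-sensitive group was Bak-/- Baxfl/fl at 10 weeks, and the apoptosis-resistant group was Bak-/- BaxD/D at 10 weeks. Both of these groups therefore lacked Bak, and the age comparison and the Bax comparison shared no library. The labels do not say what drove the deletion of Bax or whether a library held 1 mouse or a pool.

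S100 proteins are small proteins that act as pairs of subunits, and most S100 proteins, though not all, bind calcium. Annexins bind membrane phospholipids when calcium is present. S100A10 binds annexin A2 and S100A11 binds annexin A1, and the complex of S100A10 with annexin A2 also binds the giant scaffold protein AHNAK at the plasma membrane. Galectin-1, the product of Lgals1, binds sugars of surface glycoproteins, vimentin is an intermediate filament protein, and CRIP1 is a small LIM-domain protein. In lymphocytes these genes are known for higher expression in memory and effector cells than in naive cells.

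Of the 10 genes, 8 had a RefSeq promoter on build GRCm38.p6, and for Lgals1 and S100a10 none is shown. Promoters of 4 genes are printed, because S100a4 and S100a6 are neighbours whose levels differed, Anxa2 had the widest range of levels among the genes detected in all libraries, and S100a11 was low in the libraries of 1 date. Each covers the 250 bases before the annotated start, 5′ to 3′ on the plus strand. The regions are chr3:90603520-90603769 for S100a4, chr3:90612644-90612893 for S100a6, chr3:93520246-93520495 for S100a11 and chr9:69453433-69453682 for Anxa2. Capitals mark matches on either strand, overlaps included, to the letters of a TATA box (TATAAA), to those of a GC box (GGGCGG), to those of a CACC box (CCACCC) and to those of an AP-1 site (TGANTCA).
S100a4: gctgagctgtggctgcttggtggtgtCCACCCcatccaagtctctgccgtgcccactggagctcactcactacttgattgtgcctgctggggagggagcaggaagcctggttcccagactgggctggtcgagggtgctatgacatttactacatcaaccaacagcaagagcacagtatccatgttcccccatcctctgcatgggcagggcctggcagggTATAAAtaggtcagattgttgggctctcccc
S100a6: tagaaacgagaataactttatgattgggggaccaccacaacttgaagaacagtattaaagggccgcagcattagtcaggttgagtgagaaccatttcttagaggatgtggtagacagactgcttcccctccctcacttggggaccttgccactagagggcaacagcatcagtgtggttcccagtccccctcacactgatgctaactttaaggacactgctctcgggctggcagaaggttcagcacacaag
S100a11: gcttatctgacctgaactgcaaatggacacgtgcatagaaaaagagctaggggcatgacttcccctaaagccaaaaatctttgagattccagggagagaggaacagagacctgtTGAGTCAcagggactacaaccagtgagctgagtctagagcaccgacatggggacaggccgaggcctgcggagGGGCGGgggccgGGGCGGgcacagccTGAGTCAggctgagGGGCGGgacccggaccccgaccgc
Anxa2: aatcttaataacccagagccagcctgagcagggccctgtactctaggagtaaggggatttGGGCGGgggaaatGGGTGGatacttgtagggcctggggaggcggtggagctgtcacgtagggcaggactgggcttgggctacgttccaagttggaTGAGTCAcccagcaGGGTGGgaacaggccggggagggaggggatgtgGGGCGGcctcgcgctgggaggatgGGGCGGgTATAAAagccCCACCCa
The S100a4 window held 1 TATA and 1 CACC match, and the S100a6 window held 0 matches to the 4 motifs. The S100a11 window held 3 GC boxes and 2 AP-1 matches, and the Anxa2 window held 1 TATA, 3 GC, 3 CACC and 1 AP-1 match. Of 32536 RefSeq promoter windows of the same length, 12.3% held the TATA letters, 33.0% the GC box, 28.1% the CACC box and 6.73% the AP-1 letters. A match describes the letters only and does not show that a factor binds there. The other genes lie at chr15:78926725-78930465 (Lgals1), chr19:20373434-20390671 (Anxa1), chr9:69453683-69491792 (Anxa2), chr19:8989284-9076935 (Ahnak), chr2:13574311-13582826 (Vim) and chr12:113152012-113153879 (Crip1).

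The libraries held 13474162 to 23539764 counted reads, and levels are given as CPM, the share of a library's counts on the usual CPM scale, after TMM scaling. Bax stood at 4.97 to 8.36 CPM in the apoptosis-resistant libraries and at 44.2 to 100 CPM in the other 9. Bak1 stood at 6.17 to 14.4 CPM in the 6 Bak-/- libraries and at 24.7 to 47.9 CPM in the wild-type ones. B cell markers were present in all libraries, with 10 of 10 marker genes tested and a summed level of 16028 to 22815 CPM. In each comparison of age or of Bax, libraries with the same replicate number shared a collection date. The wild-type and Bak-/- groups shared no date, so group and date cannot be told apart between them. The first young and the first old library, both of 24 March, stood apart from the other 10 on the first principal component, at 69.3 and 89.2 against -31.1 to 18.3. The first young library was also the lowest of the 12 for 8 of the 10 genes. For the genes with the lowest p, age values without both libraries of 24 March stand beside the values with them. The third library of both Bak-/- groups had a shift towards short transcripts, described with Ahnak and Crip1.

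Compared per kilobase of transcript (RPKM), the 10 genes covered a wide span of levels, in the order Crip1, Vim, S100a10, S100a11, Ahnak, Lgals1, Anxa1, Anxa2, S100a6 and S100a4. The means over 12 libraries were 144 RPKM for Crip1, 129 for Vim and 121 for S100a10. The ranges of these 3 overlapped almost entirely, 74.0 to 232, 57.2 to 184 and 44.7 to 181 RPKM, so their order is not separated from the spread between libraries. S100a11 averaged 38.0 RPKM and Ahnak 27.1. Lgals1, Anxa1, Anxa2 and S100a6 lay between 10.0 and 17.5 RPKM on average, again with overlapping ranges. S100a4, which encodes a metastasis-associated S100 protein, was barely detected, at 0 to 2.37 RPKM.

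**Figure D1:**
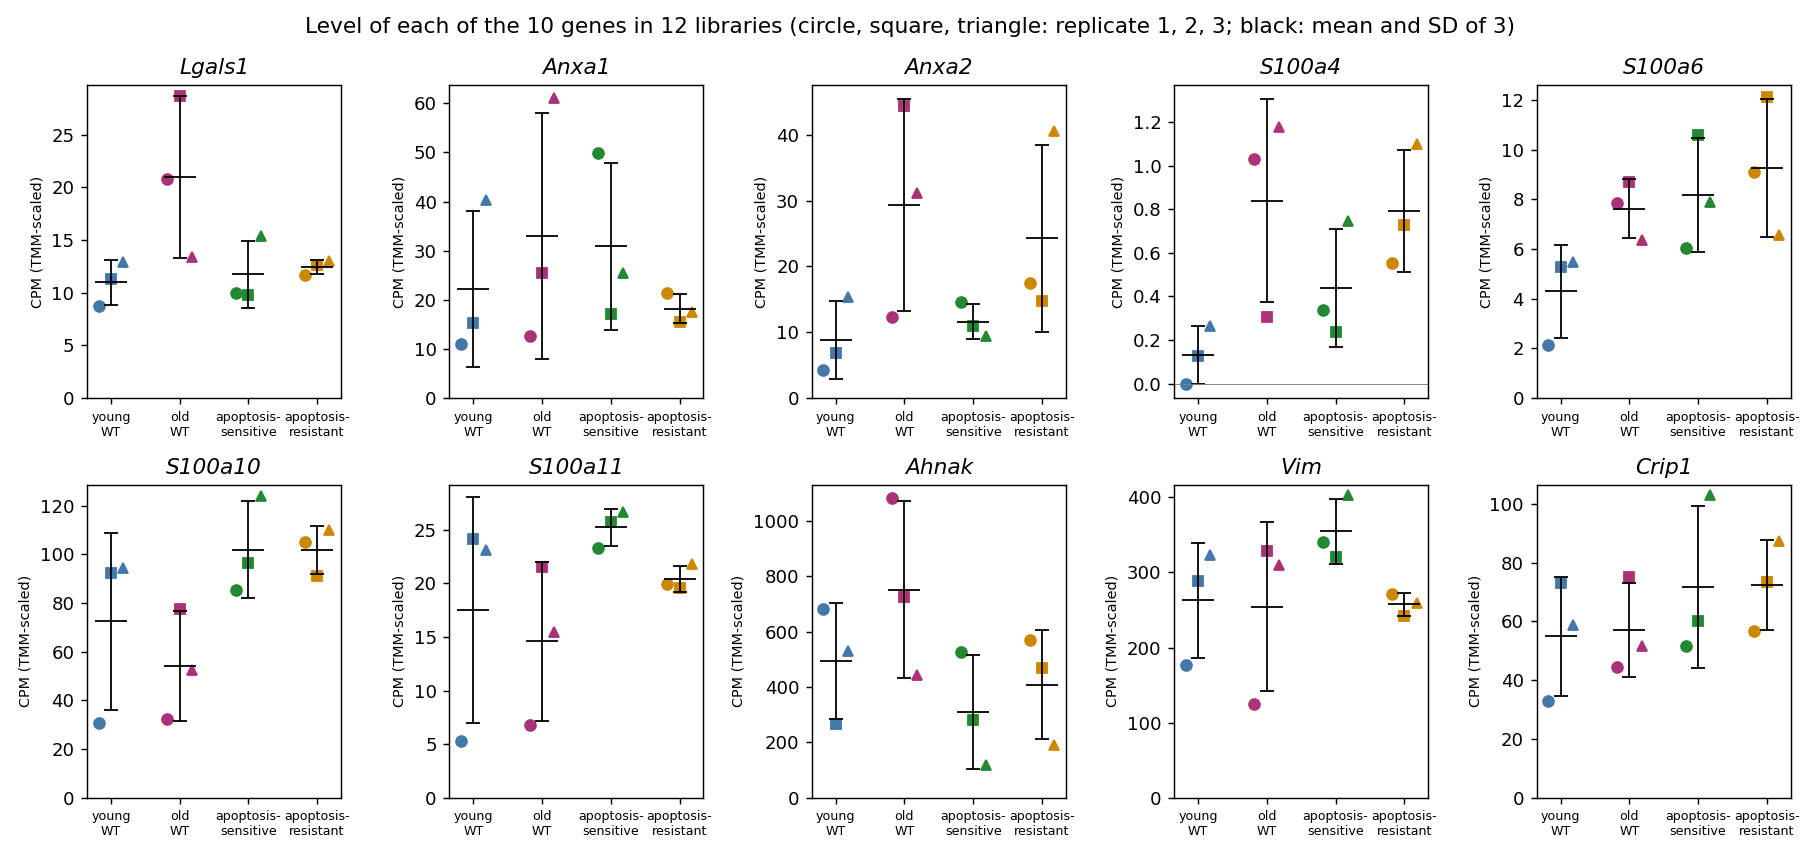
Level of each gene (CPM after TMM scaling, linear axes from 0, each with its own scale) in the 12 libraries by group. Points are libraries, with circle, square and triangle for replicates 1, 2 and 3, and black bars are the mean and SD of 3. Old libraries lie above all young libraries for Lgals1, S100a4 and S100a6, and the circle of young wild type is the lowest point for 8 genes.

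The age comparison asked whether these genes differed between old and young wild-type cells. None of the 10 passed an adjusted p of 0.05 in edgeR's quasi-likelihood test, against 2.01% of all genes tested. At an unadjusted p under 0.05 there were 4 (Lgals1, S100a4, S100a6 and Anxa2), against 11.6% of all genes. All 4 stood higher in old cells, and 7 of the 10 genes had a log2 fold change above 0, against 45.7% of all genes. The median log2 fold change of the 10 was 0.59, and that of all genes was -0.03. In bulk samples, a change in the share of cells that express a gene and a change in RNA per cell cannot be told apart.

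Lgals1 had the lowest p of the 10 genes for age. It stood at 8.71, 11.3 and 12.9 CPM in the young libraries and at 20.8, 28.7 and 13.4 CPM in the old ones. Old and young libraries did not overlap, but the third old library was close to the highest young one. The log2 fold change was 0.93 ± 0.29 (SE, n = 3 against 3, 95% interval 0.30 to 1.57), with an adjusted p of 0.161, and without both libraries of 24 March it was 0.80 (0.339). With the collection date as a block, which compares libraries of the same date, it was 0.89 ± 0.24 with an adjusted p of 0.032. In that fit Lgals1 was the only one of the 10 that passed, against 14.9% of all genes. DESeq2 also called it, at an adjusted p of 0.0493. The call under the block was lost without the 24 March pair (adjusted p 0.189) and without the 11 April pair (0.178), and was kept without the 12 April pair (0.0022).

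S100a6, which encodes calcyclin, and its neighbour S100a4 also separated old from young. S100a6 stood at 2.14, 5.27 and 5.47 CPM in young libraries and at 7.83, 8.70 and 6.34 CPM in old ones. All 3 young libraries lay below all 9 others, whose range was 6.03 to 12.1 CPM. The age log2 fold change of S100a6 was 0.82 ± 0.37 with an adjusted p of 0.428, and without both libraries of 24 March it was 0.49 with an adjusted p of 0.626. S100a4 had 0, 3 and 4 reads in the young libraries and 21, 6 and 22 in the old ones. Its log2 fold change was 2.56 ± 0.83 with an adjusted p of 0.179, and it rests on 7 reads in young and 49 in old cells. It was 1.94 (adjusted p 0.365) without both libraries of 24 March and 3.29 without the third young library. With the date block combined with a correction for transcript length, chosen after seeing the data, S100a4 and S100a6 passed at adjusted p of 0.0445 and 0.0413, beside Lgals1 at 0.0169 and against 15.0% of all genes. Thus 3 of the 10 genes stood above in every old library, where 9.16% of all genes did so, and 0 stood below, against 6.96%.

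Anxa2, the membrane-binding partner of S100A10, had the largest age difference among the well-detected genes. It stood at 4.19, 6.81 and 15.4 CPM in young libraries and at 12.3, 44.4 and 31.2 CPM in old ones. The groups overlapped, because the first old library lay below the third young one, although old exceeded young within each of the 3 dates. The log2 fold change was 1.73 ± 0.56 with an adjusted p of 0.184, and 1.77 ± 0.51 with an adjusted p of 0.083 under the date block. Without the 24 March libraries it was 1.78 (adjusted p 0.134), and leaving out 1 wild-type library at a time gave 1.31 (without the second old library) to 2.39 (without the third young one). DESeq2 called Anxa2 at an adjusted p of 0.0352, so that with Lgals1 it called 2 of the 10, against 5.16% of all genes. Its partner S100a10 had a change below 0, with levels of 30.6, 92.5 and 94.3 CPM in young and 32.4, 77.7 and 52.5 CPM in old libraries. The log2 fold change of S100a10 was -0.42 ± 0.39, with an adjusted p of 0.844.

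Anxa1, which encodes an annexin with anti-inflammatory activity, stood at 11.0, 15.3 and 40.4 CPM in young and at 12.6, 25.5 and 61.0 CPM in old libraries. The groups overlapped, the third library was the highest of both, and the old library was above the young one of its date in all 3 pairs. The log2 fold change was 0.57 ± 0.59 with an adjusted p of 0.876, and under the block 0.53 ± 0.18 with an adjusted p of 0.0818. S100a11, the partner of annexin A1, stood at 5.34, 24.1 and 23.1 CPM in young and 6.75, 21.5 and 15.5 CPM in old libraries. Its log2 fold change was -0.27 ± 0.48, with an adjusted p of 0.955. Vim gave -0.05 ± 0.33 (95% interval -0.76 to 0.67) and Crip1 0.05 ± 0.34 (-0.68 to 0.79), both with intervals that hold changes in either direction. Ahnak gave 0.61 ± 0.56.

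**Figure D2:**
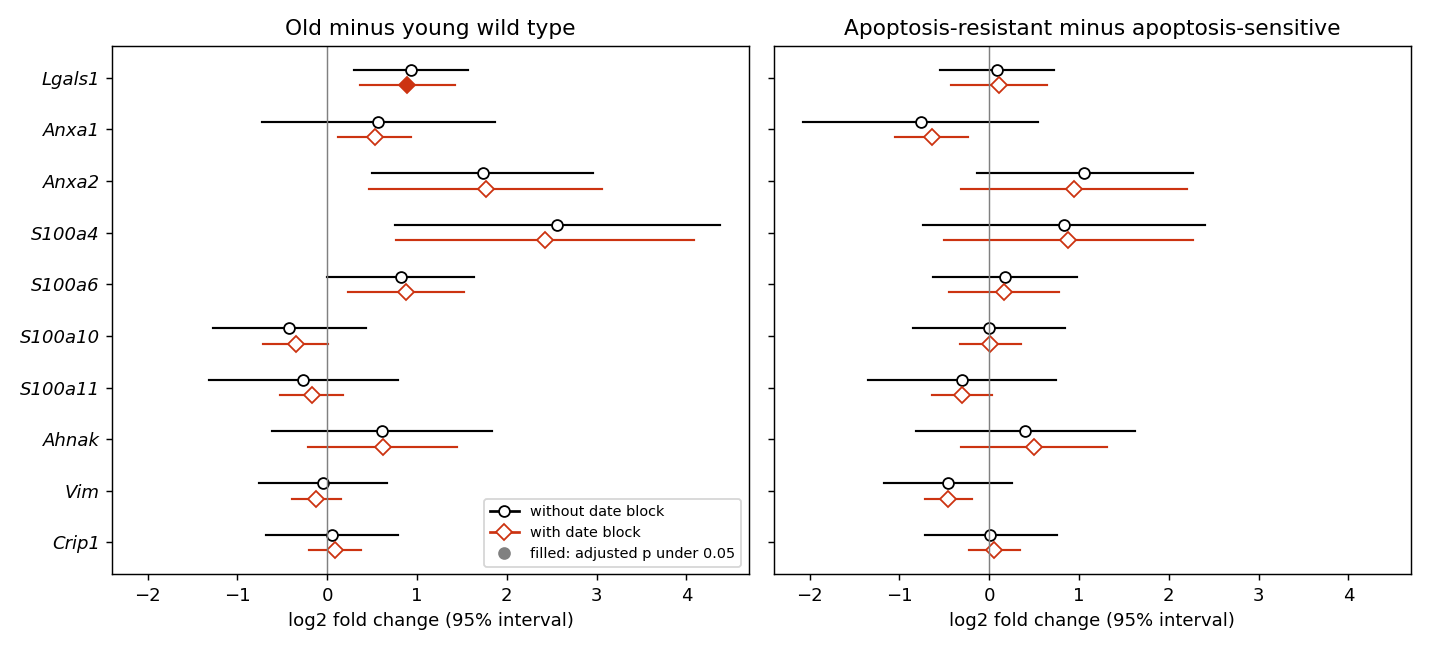
Log2 fold change of each gene with its 95% interval, for age on the left and for Bax deletion on the right, from the fit without a block (black circles) and with collection date as a block (red diamonds). Filled symbols mark an adjusted p under 0.05, which Lgals1 reached for age under the block.

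Deletion of Bax in Bak-/- cells gave no called difference for these genes. In the apoptosis-resistant against apoptosis-sensitive comparison 0 of the 10 passed in edgeR's test, against 0.0441% of all genes. At an unadjusted p under 0.05 there were 0, against 4.90%, and DESeq2 and the date block also called 0, against 0.944% and 3.41%. The median log2 fold change was 0.05, and -0.02 over all genes. The intervals were wide: for Lgals1 the log2 fold change was 0.09 ± 0.29 (95% interval -0.55 to 0.72).

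Anxa2 and Vim had the lowest p of the 10 genes between these groups without the date block, and Vim and Anxa1 with it. Anxa2 stood at 14.6, 10.9 and 9.35 CPM in apoptosis-sensitive and at 17.4, 14.7 and 40.6 CPM in apoptosis-resistant libraries. The groups did not overlap, although the highest sensitive and the lowest resistant library were nearly equal, and the third resistant library stood far above the rest. The log2 fold change of 1.06 ± 0.55 (adjusted p of 1) ranged from 0.47 to 1.33 when each library in turn was left out. Under the date block it was 0.94 ± 0.50 with an adjusted p of 0.415. Vim stood at 340, 321 and 403 CPM in sensitive and at 272, 242 and 259 CPM in resistant libraries, which did not overlap either. Its log2 fold change was -0.46 ± 0.33 (adjusted p of 1), and under the date block -0.46 ± 0.12 with an adjusted p of 0.0705. S100a11 was the third gene without overlap, at 23.3, 25.7 and 26.7 CPM in sensitive and 19.9, 19.6 and 21.8 CPM in resistant libraries. Thus 1 of the 10 genes was higher without overlap, against 6.32% of all genes, and 2 were lower, against 8.31%.

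The difference between the age effect and the Bax effect was tested in the same fit. Again 0 of the 10 passed, against 0.250% of all genes, with 0 at an unadjusted p under 0.05, against 6.88%, and DESeq2 called 0, against 1.88%. Under the date block Anxa1 passed, with a difference in log2 fold change of 1.17 ± 0.26 and an adjusted p of 0.0261, against 7.03% of all genes. Without the block the same difference was 1.33 ± 0.84 with an adjusted p of 0.938. Under the block the call was lost when the pair of 11 April (adjusted p 0.0711), of 12 April (0.0673), of 30 May (0.0842) or of 7 May (0.0603) was left out. It was kept without the pair of 24 March (0.04) or of 31 May (0.0182).

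Anxa1 was highest in the 3 libraries with the highest sums of granulocyte markers and of erythroid markers. Apoptosis-sensitive libraries held it at 49.9, 17.2 and 25.5 CPM and apoptosis-resistant ones at 21.4, 15.5 and 17.6 CPM, a log2 fold change of -0.76 ± 0.60 (adjusted p of 1), or -0.64 ± 0.18 (0.0937) under the date block. The 3 highest libraries, at 61.0, 49.9 and 40.4 CPM, came from 3 different groups, and the next stood at 25.5 CPM. In the same 3 libraries, the third old, the first sensitive and the third young, the summed level of 12 granulocyte markers was 752, 768 and 814 CPM, and in the other 9 it was 28.8 to 191 CPM. By group the granulocyte sum ran from 28.8 to 814 CPM in young, 127 to 752 in old, 83.7 to 768 in sensitive and 31.6 to 73.8 CPM in resistant libraries, and 0 of its 12 markers were at 0 in any group. Neutrophil granule genes such as Ngp, at 225, 238 and 220 CPM there, belong to that list. The part of granulocyte RNA in the Anxa1 values was not tested.

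**Figure D3:**
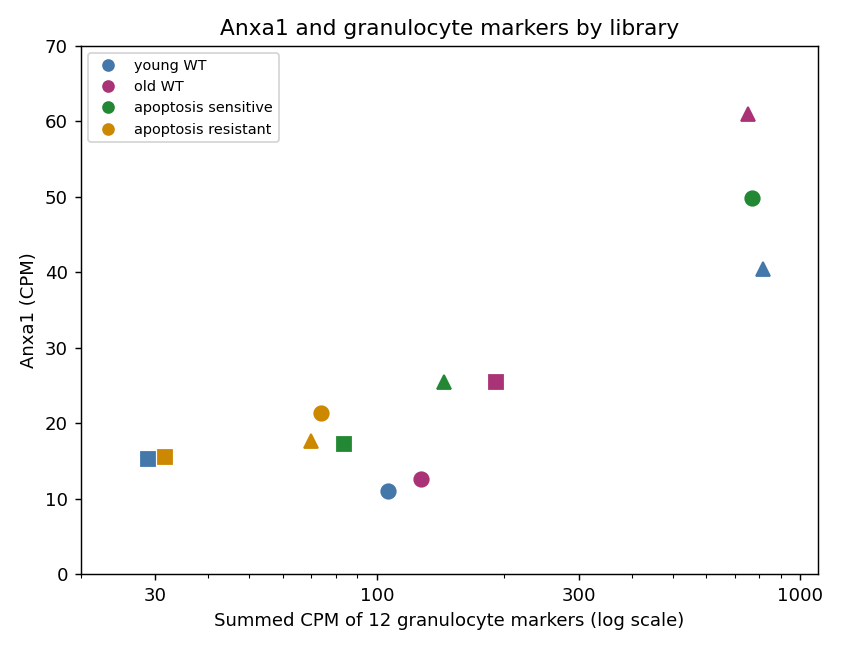
Level of Anxa1 (CPM) against the summed level of 12 granulocyte markers (CPM, log axis) in the 12 libraries, coloured by group, with circle, square and triangle for replicates 1, 2 and 3. The 3 libraries with sums of 752 to 814 CPM have Anxa1 at 40.4 to 61.0 CPM, and the other 9 have 11.0 to 25.5 CPM.

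Against young wild-type cells, the Bak-/- groups gave no called difference, with the limit that they share no date and that both comparisons use the young libraries of the age comparison. In apoptosis-sensitive cells 0 of the 10 passed, against 0% of all genes, with 1 (S100a6) at an unadjusted p under 0.05, against 2.73%, and 0 by DESeq2, against 0.103%. In apoptosis-resistant cells 0 passed, against 0.162%, with 3 (S100a4, S100a6 and Anxa2) at an unadjusted p under 0.05, against 6.13%, and 0 by DESeq2, against 1.09%. S100a6 stood at 6.03, 10.6 and 7.90 CPM in sensitive and at 9.10, 12.1 and 6.55 CPM in resistant libraries, above every young library in both. Its log2 fold changes against young were 0.92 ± 0.37 (adjusted p of 0.824) and 1.09 ± 0.37 (adjusted p of 0.588), and 0.62 (0.932) and 0.80 (0.689) without the 24 March libraries. S100a4 had 6, 4 and 16 reads in sensitive and 8, 12 and 23 in resistant libraries, and its CPM in the resistant ones lay above every young library. Its log2 fold change in resistant cells was 2.50 ± 0.83 (adjusted p 0.565), and 2.07 (0.682) without the 24 March libraries. The genes above all young libraries were thus 1 of 10 in sensitive cells, against 4.57% of all genes, and 2 of 10 in resistant cells, against 6.64%. A test of any difference among the 4 groups called 0 of the 10, against 3.11% of all genes, with 3 at an unadjusted p under 0.05, against 12.5%, and 0 by DESeq2, against 8.22%.

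S100a10 and S100a11 had the most alike profiles of any pair in the set. They lie 28829 bases apart on chromosome 3, at chr3:93555117-93564645 and chr3:93520496-93526288 (GRCm38). The root mean square difference of their centred log2 CPM over 12 libraries was 0.234, and each was the nearest of the other 9 genes to the other. Both were low in the libraries of 24 March, S100a10 at 30.6 and 32.4 CPM against 52.5 to 124 in the other 10, and S100a11 at 5.34 and 6.75 CPM against 15.5 to 26.7. S100a4 and S100a6, at chr3:90603770-90606045 and chr3:90612894-90614414, lie 6849 bases apart in the same family cluster, and their profiles differed more, at 0.799. S100a6 was still the nearest of the other 9 genes to S100a4, which had at most 23 reads in a library. The gene nearest to S100a6 was Crip1, at 0.506. The levels of S100a4 and S100a6 also differed, with 125 reads in all for S100a4 and 1604 for S100a6. S100a5, which lies between them, had 1 read in the 12 libraries.

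Ahnak and Crip1 are the longest and the shortest transcripts of the set, at 18100 and 445 bases. Ahnak stood at 682, 267 and 529 CPM in young, 1082, 727 and 445 in old, 528, 281 and 120 in sensitive and 570, 467 and 190 CPM in resistant libraries. Crip1 stood at 32.9, 73.1 and 58.7 CPM in young, 44.5, 75.1 and 51.5 in old, 51.8, 60.2 and 103 in sensitive and 56.6, 73.3 and 87.3 CPM in resistant libraries. The third library of the sensitive and that of the resistant group held the 2 lowest values of Ahnak and the 2 highest of Crip1. In these libraries transcripts under 1 kb stood above transcripts over 6 kb by 1.06 and 0.54 in median log2 deviation, against -0.28 to 0.04 in the other 10. With a correction for transcript length, the SE of the age effect went from 0.56 to 0.35 for Ahnak and from 0.34 to 0.17 for Crip1, and neither gene passed in any comparison.

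**Figure D4:**
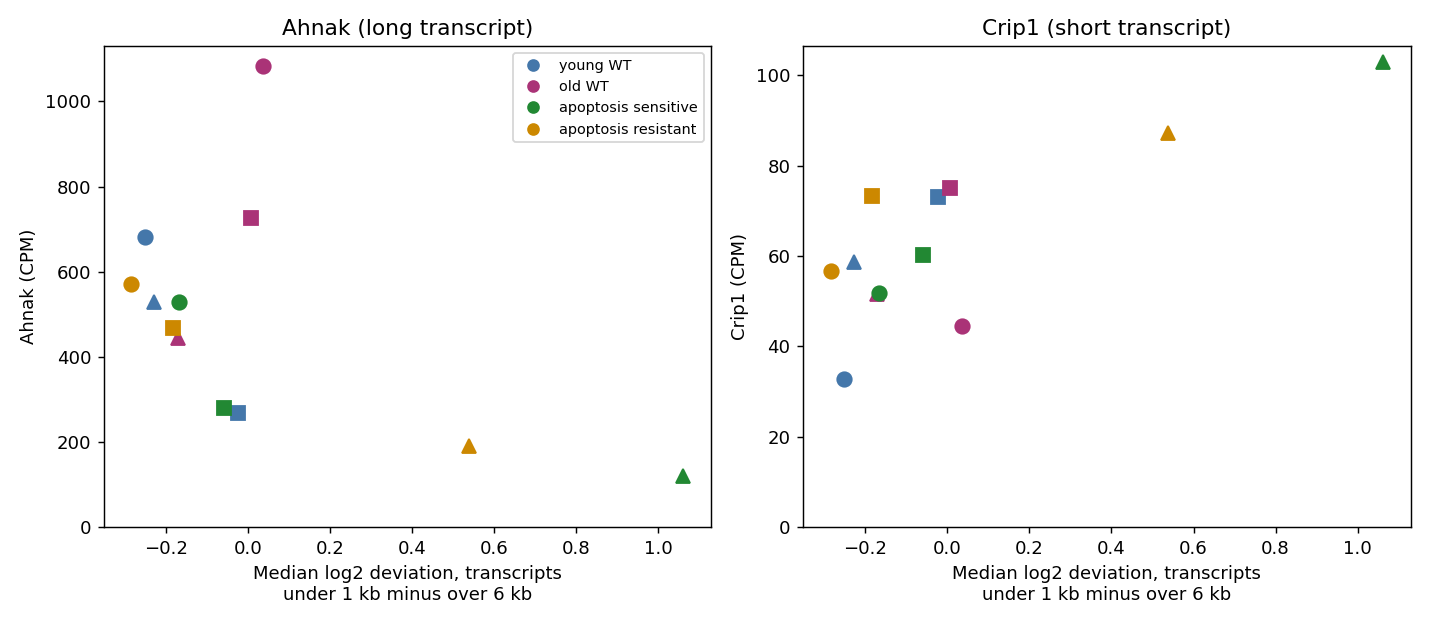
Levels (CPM) of Ahnak, 18100 bases long, and Crip1, 445 bases, against each library's median log2 deviation of transcripts under 1 kb minus that of transcripts over 6 kb, with symbols for replicates 1, 2 and 3 as circle, square and triangle. The libraries at 1.06 and 0.54 hold the lowest Ahnak values, 120 and 190 CPM, and the highest Crip1 values, 103 and 87.3 CPM.

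The other genes of the same families gave few calls. For age, 0 of 4 tested S100 genes, 0 of 8 annexins, 0 of 5 galectins, 0 of 6 intermediate filament genes and 0 of 25 actin cytoskeleton genes passed in edgeR's test, against 2.01% of all genes. At an unadjusted p under 0.05 these lists had 0, 2, 1, 1 and 2 genes, against 11.6% of all genes, and DESeq2 called 0, 0, 1, 0 and 1, against 5.16%. The most abundant gene of each list had a log2 fold change of 0.07 ± 1.09 (S100a9), 0.19 ± 0.35 (Anxa6), -0.10 ± 0.25 (Lgals8), -0.06 ± 0.29 (Plec) and -0.02 ± 0.46 (Actb). The next most abundant, S100a8, Anxa7, Lgals9, Lmnb1 and Coro1a, lay between -0.44 and -0.03. Under the date block, which called 14.9% of all genes for age, 2 of 8 annexins, 2 of 5 galectins and 6 of 25 actin cytoskeleton genes passed, with 0 S100 and 0 intermediate filament genes. Anxa5 (adjusted p 0.0128) and Anxa9 (0.016) stood higher among the annexins, and of the galectins Lgals3 was higher (0.019) and Lgals9 lower (0.0355). Of the 6 actin cytoskeleton genes 3 were higher (Actn1, Ahnak2 and Capg) and 3 lower (Zyx, Actg1 and Rdx), with adjusted p of 0.0315 to 0.0453. Lgals3, which encodes galectin-3, stood at 2.79, 5.82 and 11.1 CPM in young and 13.1, 46.9 and 26.2 CPM in old libraries, without overlap. Of 11 LIM-domain genes, 1 rose and 1 fell with age, against 2.01% of all genes, and under the block 1 was higher and 4 lower. Csrp2, which encodes a LIM protein of the CRP family, fell by 2.02 ± 0.33 on the log2 scale (adjusted p 0.0111). Fhl2, a LIM-only cofactor, was higher by 4.20 ± 0.84 (adjusted p 0.029) at levels of no more than 1.67 CPM. Without the second old library neither was called, and Fhl2 was also not called without the third old or without the first or second young library. For Bax deletion, 0 genes of these lists passed in edgeR's test, against 0.0441% of all genes. Under the block, which called 3.41% of all genes, Lmnb1, a nuclear lamin, had a log2 fold change of -0.51 (adjusted p 0.0116) and Vcl, which encodes vinculin, one of -0.45 (0.0404).

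Calls for age were found among surface partners and memory genes. Of 17 surface genes, 1 rose with age and 0 fell, against 2.01% of all genes, and under the block 5 were higher and 1 lower, against 14.9%. Itgb1, the integrin beta-1 chain, stood at 32.9, 65.6 and 83.2 CPM in young and at 109, 305 and 168 CPM in old libraries, with a log2 fold change of 1.68 ± 0.38 (adjusted p 0.0488). That call was lost in 5 of the 6 fits that left out a wild-type library (it was kept without the first old library), with a highest adjusted p of 0.151. Of 13 genes of memory and other antigen-experienced B cells, 8 rose with age and 0 fell, against 2.01% of all genes called, with a median log2 fold change of 1.84 against -0.03 over all genes. The count was 7 without the first or the third library of either group, 6 without the second old library and 4 without the second young one. The list of memory genes was chosen with earlier results of these data known, so its contrast with all genes is no independent test. Among the 8, Fcrl5, an Fc receptor-like protein, rose by 1.84 ± 0.17 on the log2 scale (adjusted p 0.001), and Nt5e, which encodes CD73, by 4.34 ± 0.58 (0.00514). Cd80, a costimulatory ligand, rose by 2.86 ± 0.40 (0.00563) and Ahr, the aryl hydrocarbon receptor, by 1.85 ± 0.29 (0.00899), a call that was lost without the second young library (0.0531). The second old library, which held the highest Anxa2 (44.4 CPM) and Lgals1 (28.7 CPM), also held the highest Itgb1, Cd44 (182 CPM), Spn (135 CPM) and Lgals3 of the 12. The memory genes were split between libraries. The first old library, with the lowest Anxa2 of the old group (12.3 CPM), held the highest Nt5e (81.2 CPM), Cd80 (29.4 CPM) and Fcrl5 (89.6 CPM) of the 12. It also held the highest Zbtb32, Bhlhe41 and Itgax. The second old library held the highest Tbx21 (39.3 CPM), Ahr (33.8 CPM), Cd9 (21.3 CPM), Cd38 (415 CPM) and Pdcd1lg2 (44.1 CPM). Cd200 and Cd86 were highest in apoptosis-resistant libraries.

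Markers of other cells also differed with age. Summed stromal markers stood at 17.5, 83.2 and 146 CPM in old and at 2.79, 2.96 and 12.5 CPM in young libraries. Most of that sum was Cxcl12, a chemokine of marrow stroma, at a mean of 61.8 CPM in old and 4.45 CPM in young cells. Monocyte and macrophage markers stood at 230, 309 and 402 CPM in old and at 54.9, 55.8 and 176 CPM in young libraries. Mpeg1, which encodes the pore-forming protein perforin-2, had a mean of 183 CPM in old and 33.0 CPM in young cells and made up most of that difference, while C1qa, a complement gene of macrophages, stood at 0.587, 6.76 and 6.99 CPM in old and 0.493, 1.41 and 3.49 CPM in young libraries. NK cell markers summed to 12.3 to 19.6 CPM in old and 2.46 to 6.33 CPM in young libraries. T cell markers summed to 48.5 to 90.3 CPM in old and 40.8 to 81.1 CPM in young libraries, where most of the sum was Lck, at a mean of 40.5 CPM in old and 46.6 CPM in young cells. Cd3g, a chain of the T cell receptor complex, had a mean of 6.13 CPM in old and 0.369 CPM in young cells. It fell from the first to the third old library, at 9.54, 5.78 and 3.06 CPM. Cd3e, at 1.08, 1.69 and 1.94 CPM, and Cd4, at 1.47, 2.30 and 5.97 CPM, rose in that order. Cd5 had means of 2.83 CPM in old and 2.05 CPM in young cells, and Il7r 3.42 and 3.20 CPM. Of the stromal, monocyte, NK and T cell markers tested, 1 of 4, 2 of 10, 2 of 7 and 1 of 12 passed, all higher, against 2.01% of all genes. Under the date block 4, 7, 6 and 6 were higher and 0 lower, against 14.9%, and DESeq2 called 4, 5, 4 and 6, against 5.16%. The median log2 fold changes of these lists were 3.84, 1.94, 2.72 and 2.07. In these 4 lists 0 markers were at 0 in the old or the young group. Among plasmacytoid dendritic cell, granulocyte, plasma cell, erythroid and endothelial markers, 1 of 4, 0 of 12, 0 of 8, 0 of 7 and 0 of 2 passed for age, and 1, 2, 0, 0 and 0 under the block. The plasma cell sum was 1828 CPM in the second old library and 428 to 972 CPM in the other 11. Several of the 10 genes are known to be expressed in these cell types, and the part of such cells in the age differences was not tested.

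Over the 12 libraries, the mean centred log2 profile of the 10 genes was lowest in the first young library, at -1.12, and highest in the second old one, at 0.45. The genes nearest to this profile among 11052 compared were Eif1a, Zfp438, Rap2b, Cdc42ep4, Tm7sf3, Ipp, Stx7 and Mgat2, with root mean square differences of 0.103 to 0.162. The median over all compared genes was 0.498. The members themselves lay from 0.349 for Crip1 to 1.005 for Ahnak from their own mean. The genes named above were picked for nearness, so their lying nearer than the members is no result. S100a4 (0.799), Anxa2 (0.664), Anxa1 (0.602), S100a11 (0.522), S100a10 (0.502) and Ahnak lay farther than that median. Lgals1, S100a6, Vim and Crip1 lay nearer.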

How the data were processed

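Whole-number read counts per gene came from the table the authors deposited, with a column for every library. Subread and featureCounts were used with build mm10, per the submitters' processing notes. The strand setting and the annotation are not given in the sources used here, so reads of Lgals1 and the overlapping long noncoding RNA Gm30368, and of Anxa2 and Mir3109, cannot be told apart. RefSeq gave symbols for 25275 of 27179 genes, and lengths are of the longest GENCODE vM21 transcript paired with a curated RefSeq one. The edgeR filter on low counts (filterByExpr, minimum 10 reads) kept 13592 genes, with all 10 members among them.

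The main model was edgeR's robust quasi-likelihood fit (edgeR 4.0.16, R 4.3.3) of all 12 libraries by group, with TMM scaling and 8 residual degrees of freedom. It was also run on simulated counts, which held no effect of date or transcript length and so could not test the model for these. Its p-values were adjusted by Benjamini-Hochberg over all genes tested, the threshold was 0.05, and every adjusted p is edgeR's unless DESeq2 is named. Alternatives were a block by collection date, DESeq2 1.42.0, other size factors, no filter, fits without single libraries and, added after seeing the data, a length correction and the block without each date pair. Per the labels, same-numbered old and young libraries shared a date, as did same-numbered sensitive and resistant ones. Their deviations from the group means correlated at 0.745, 0.512 and 0.555, and at 0.284, 0.325 and 0.487. Libraries of different numbers were not correlated for comparison, so the pairing rests on the date labels. Dates were read as year, day, month, since days above 12 stand in the middle of some. The dates called 11 April, 12 April and 7 May could be read in the other order, which leaves the pairs as they are. The year on the 24 March labels is 2006, against 2016 on the others. The series calls the libraries biological replicates.

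Named genes were all 10 members and, from each other list, up to 4 that passed by p, or the 2 most abundant where none passed. Anxa5, Anxa9, Lgals3, Actn1, Ahnak2, Capg, Zyx, Actg1, Rdx, Vcl, Cd44, Spn, Ngp, Cxcl12, Mpeg1, C1qa, Lck, Cd3g and S100a5 were named after their values were seen. The same holds for Zbtb32, Bhlhe41, Itgax, Tbx21, Cd9, Cd38, Pdcd1lg2, Cd200 and Cd86. Members and lists were chosen with earlier results of these data known. The table had 0 unused columns.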

Additional observations from a re-analysis of the deposited data

How the results depend on the processing

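The values of the 10 genes under the alternatives numbered 817, leaving aside the test of any group difference. Of these, 747 kept their direction and their side of the threshold, 14 became calls and 56 changed sign. None of the 10 genes was called in the main fit of any comparison, so no call could be lost. The 747 values thus stayed without a call. For age, the genes called numbered 273 without the date block and 2028 with it, 2039 with block and length correction, 700 by DESeq2 and 1 from only the 6 libraries compared, and of the 10 genes 1 was called with the block, 3 with block and length correction and 2 by DESeq2. For the Bax comparison the counts were 6, and 463 with the block, 403 with block and length correction, 128 by DESeq2 and 11 with no filter. For the difference of both effects they were 34, and 955, 733 and 255 with the block, with block and length correction and by DESeq2, and 75 without both libraries of 24 March, with 1 of the 10 genes called under each of the block fits. Under the block without 1 date pair, the age counts were 925, 1175 and 1714 without 24 March, 11 April and 12 April, with 3 of the 10 genes called in the last (Lgals1, S100a6 and Ahnak) and 0 in the others. The Bax counts were 131, 173 and 139 without 30 May, 31 May and 7 May. The counts for the difference were 647, 677, 901, 250, 435 and 551 in the same order of dates, with 1 of the 10 genes called without 12 April (Lgals1) and 1 without 24 March or 31 May (Anxa1). For apoptosis-sensitive against young cells 0 genes were called, and 3 with no filter, 3 without 24 March and 14 by DESeq2. For apoptosis-resistant against young cells 22 were called, and 34 with no filter, 12 from the 6 libraries and 148 by DESeq2. For any group difference 423 were called and 1114 by DESeq2, and the length correction called 1 of the 10 genes, Lgals1 (adjusted p 0.0466). Leaving out 1 library at a time gave 75 to 238 genes called for age, 0 to 5 for Bax, 2 to 37 for the difference, 0 to 1 and 10 to 20 for sensitive and resistant against young, and 202 to 588 for any group difference. The cause of these shifts was not tested.

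None of the values that changed sign was called. For age, leaving out 1 library gave ranges of -0.68 to 0.07 for S100a11, -0.23 to 1.32 for Anxa1, -0.27 to 0.28 for Vim and -0.19 to 0.32 for Crip1. For Bax they were -0.02 to 0.35 for Lgals1, -0.06 to 0.41 for S100a6 and -0.16 to 0.39 for Crip1. For the difference they were -0.37 to 0.37 for S100a11, -0.43 to 0.57 for Ahnak and -0.34 to 0.30 for Crip1. Against young, sensitive cells gave -0.15 to 0.24 for Lgals1 and -0.05 to 1.23 for Anxa1, and resistant cells -0.19 to 0.51 for S100a11, -0.59 to 0.48 for Anxa1, -0.60 to 0.10 for Ahnak and -0.23 to 0.16 for Vim. Without both libraries of 24 March, the age change was 0.06 for Vim and -0.05 for Crip1, the difference -0.04 for S100a11 and -0.07 for Crip1, the change against young -0.02 for Lgals1 in sensitive cells, and -0.19 for S100a11 and 0.06 for Ahnak in resistant cells. The length correction gave -0.16 for Lgals1 in sensitive cells against young and -0.04 for Crip1 in the difference, which was -0.03 with block and length correction. Under the block without 24 March, age gave 0.06 for Vim and -0.07 for Crip1, and the difference -0.06 for S100a11 and -0.13 for Crip1. Under the block without 12 April the age change of S100a11 was 0.05, and without 11 April the difference for Ahnak was -0.31. Under the block without 30 May the Bax change of S100a6 was -0.03 and the difference for Ahnak -0.10, without 31 May the Bax change of Crip1 was -0.05, and without 7 May the difference for Crip1 was -0.12. Depth limited S100a4, with at most 23 reads in a library.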
